A study of Mus musculus with 6 samples.

Results

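Bone marrow stromal cells keep blood-forming cells alive and in place by a small set of secreted and surface proteins, and the transcripts of 7 of these haematopoietic niche factors were followed here in mouse bone marrow mesenchymal stem cells (mBMSCs). The genes are Kitl, Cxcl12, Vcam1, Angpt1, Il7, Gas6 and Lepr. They were taken by symbol from the 22030 genes of the count table, and each matched a single row. The series holds 6 libraries in 2 groups of 3. Control libraries are titled siNC and carry the genotype label WT, and the other 3, titled siRIOK3, come from mBMSCs labelled as RIOK3 knockdown. RIOK3 belongs to the RIO kinases, a small group of unusual protein kinases. The agent is uncertain, since the titles begin with si while the design text speaks of lentiviral stable lines and of a knockout. The sources used here do not give mouse strain, age, culture medium, day of harvest or pooling. They also do not say whether replicates were separate cultures, and the p-values below measure only the spread between these libraries, which may be technical.

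In the marrow, stem cell factor (encoded by Kitl), the chemokine CXCL12 and angiopoietin-1 act on receptors of blood stem and progenitor cells, and interleukin-7 feeds early lymphoid cells. VCAM-1 anchors blood cells that carry integrins with the alpha-4 chain, and GAS6 is a ligand of the receptor kinases TYRO3, AXL and MERTK. The leptin receptor marks the perivascular stromal cells that are known as a main source of stem cell factor and CXCL12 in adult marrow. Cultured stromal cells often keep only part of this programme.

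The RefSeq table of promoter windows (250 bases before to 50 after a gene's start, GRCm38.p6) held 4 of the 7 genes. Shown are the windows of Kitl, the tested member with the largest fall, Gas6, the one that rose, and Cxcl12, which did not pass the test. They let the sequence at the start of each gene be set beside its transcript level. Capitals mark GGGCGG, the GC box of Sp and KLF factors, and TATAAA, the TATA box, on either strand. The windows are chr10:100015571-100015870 on the plus strand for Kitl, chr8:13494486-13494785 on the minus strand for Gas6 and chr6:117168285-117168584 on the plus strand for Cxcl12.
Kitl: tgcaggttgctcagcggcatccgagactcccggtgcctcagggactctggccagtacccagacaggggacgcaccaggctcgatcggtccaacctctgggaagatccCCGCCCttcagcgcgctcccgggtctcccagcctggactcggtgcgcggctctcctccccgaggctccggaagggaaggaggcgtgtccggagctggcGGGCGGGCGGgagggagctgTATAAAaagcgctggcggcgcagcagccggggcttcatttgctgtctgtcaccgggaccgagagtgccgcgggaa
Gas6: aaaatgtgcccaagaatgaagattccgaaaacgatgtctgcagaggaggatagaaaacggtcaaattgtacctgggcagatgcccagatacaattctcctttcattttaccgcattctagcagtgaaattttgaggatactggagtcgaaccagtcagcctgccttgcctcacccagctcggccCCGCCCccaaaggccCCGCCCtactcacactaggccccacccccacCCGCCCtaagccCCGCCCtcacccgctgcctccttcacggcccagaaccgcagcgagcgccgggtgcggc
Cxcl12: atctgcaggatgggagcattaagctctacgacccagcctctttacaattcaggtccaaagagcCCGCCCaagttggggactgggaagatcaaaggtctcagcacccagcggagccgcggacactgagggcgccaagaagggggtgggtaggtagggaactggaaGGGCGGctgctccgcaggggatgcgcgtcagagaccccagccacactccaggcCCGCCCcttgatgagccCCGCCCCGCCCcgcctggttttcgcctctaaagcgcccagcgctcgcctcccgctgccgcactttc

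Kitl held 3 matches to GGGCGG, some overlapping, and 1 to TATAAA, Gas6 held 4 GC boxes and Cxcl12 held 5, and neither of the last pair held TATAAA. Among 32851 windows of the same length, 35.7% held GGGCGG and 13.6% held TATAAA. Neither the E-box CACGTG (in 7.15% of windows) nor the AP-1 letters TGACTCA (in 5.20%) were found in any of these 3 windows. The Kitl window was 68.7% G or C, against 58.3% for Gas6, 64.7% for Cxcl12 and a median of 52.7% over all windows. The whole transcripts stood in another order, as 39.3% of the Kitl transcript, 56.6% of the Gas6 transcript and 50.7% of the Cxcl12 transcript was G or C. Lepr has 2 start windows in the table, of 61.3% and 54.3% GC. Such matches describe letters and are not shown to be sites of binding.

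The libraries held between 28327612 and 32569544 counts. Riok3, the targeted gene, averaged 157 ± 31.1 CPM (counts scaled to a common library size with TMM factors) in the controls and 33.6 ± 3.12 CPM after knockdown (SD, n = 3), without overlap (log2 fold change −2.23, edgeR, adjusted p = 0.000127). Of 12 stromal markers 11 were at 1 CPM or more in every library, with a summed level of 776 to 1013 CPM in the controls and 931 to 947 CPM after knockdown. Thy1 was the exception. Within that sum 6 of the 12 were called higher and 5 lower, among them the collagen gene Col1a2 (172 to 398 CPM) and Pdgfra (94.8 to 49.2 CPM). Over all tested genes 21.1% were called higher and 26.8% lower. Control replicate 2 stood apart, as its log2 CPM had Spearman correlations with the other controls of 0.963 and 0.968, against 0.996 between those. Fold changes over all genes followed the GC content of the reference transcript. In the lowest GC decile the median log2 fold change (knockdown over control throughout) was −1.97, and in the highest it was 0.64. For the 5 tested members, values with each library's GC trend removed and values without control replicate 2 are therefore given as well. The GC trend differs between the groups, so a technical trend and an effect of the knockdown cannot be told apart here. Its removal may take away part of a real change, and corrected below means only that the trend was removed. Riok3 itself was at −1.20 with the GC trend removed (edgeR, adjusted p = 0.0105). With control replicate 2 also left out it was at −0.89.

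Of the 5 members with enough counts to be tested, Kitl, Vcam1 and Angpt1 fell in the knockdown, Gas6 rose and Cxcl12 did not pass the threshold. Il7 and Lepr were close to the limit of detection in every library and were lower in each knockdown library than in any control. In all, 5 of the 7 members were lower in every knockdown library than in any control library, 1 was higher and 1 overlapped. Among all tested genes, which leave out Il7 and Lepr, 31.3% were lower in every knockdown library than in any control. Over all 13067 tested genes 48.0% passed in either direction (adjusted p under 0.05 in the quasi-likelihood test of edgeR), 26.8% as lower and 21.1% as higher, and 62.1% did not overlap between the groups. The members' share of calls, 4 of 5, stands against that high background. It is a description only, because the count filter of about 10 counts in 3 libraries was met by Angpt1 in none and by Kitl in 2 of the knockdown libraries, so that both passed it through the control group. With the GC trend removed 3 members were called, where 31.6% of all genes were, and with a trend on GC and length also 3, where 39.6% were. Without control replicate 2 all 5 were called, where 71.6% of all genes were (35.1% higher, 36.5% lower), and with the GC trend also removed again 5, where 61.5% were.

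**Figure D1:**
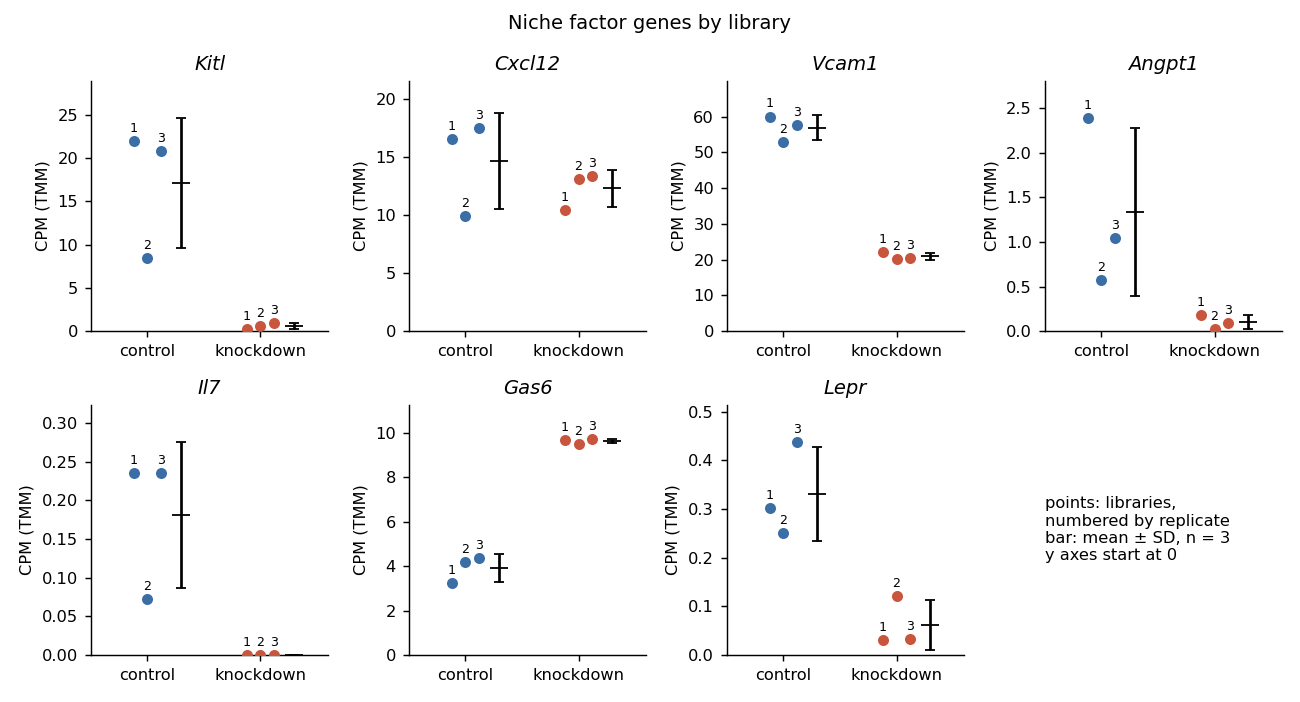
Level of each niche factor gene in CPM (TMM-scaled counts, vertical axes from 0) in the 6 libraries. Points are libraries numbered by replicate and bars are mean ± SD (n = 3). Kitl, Vcam1, Angpt1, Il7 and Lepr are lower and Gas6 is higher in all 3 knockdown libraries, and the groups overlap for Cxcl12.

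Kitl (ENSMUSG00000019966.19, chromosome 10), the ligand of the KIT receptor and a survival factor of blood stem cells, showed the largest fall among the 5 tested members. In replicate order, the controls had 656, 235 and 617 counts and the knockdown libraries 9, 21 and 28. The controls were thus uneven, with replicate 2 well under the other pair, yet its level was many times that of any knockdown library. The mean level moved from 17.1 ± 7.51 to 0.604 ± 0.312 CPM (SD, n = 3 each). The log2 fold change was −4.82 (SE 0.521, edgeR, adjusted p = 0.000449), a 28.2-fold lower level. Only 48 of the tested genes, 0.367%, had a log2 fold change as low as this or lower, Kitl included. The reference transcript of Kitl, of 5648 bases with 819 coding bases, lies in the lowest GC decile, where the interquartile range of log2 fold changes ran from −3.05 to −1.12 and 86.6% of genes were called lower. After removal of the GC trend Kitl was at −2.61 (SE 0.415, edgeR, adjusted p = 0.00451) and remained past the threshold, and without control replicate 2 it was at −5.14 (adjusted p = 2.21e-12). In bulk RNA of this kind, fewer cells that carry a transcript and less transcript per cell cannot be told apart.

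Angpt1 (ENSMUSG00000022309.10, chromosome 15) encodes angiopoietin-1, a ligand of the TIE2 receptor. In replicate order, the controls had 71, 16 and 31 counts and the knockdown libraries 6, 1 and 3. The groups did not overlap, but the controls were uneven and the knockdown values rest on a handful of counts. The level was 1.33 ± 0.938 CPM in the controls and 0.104 ± 0.0785 CPM after knockdown (log2 fold change −3.64, SE 0.747, edgeR, adjusted p = 0.00661). This call was lost with the GC trend removed, at −1.44 (SE 0.692, edgeR, adjusted p = 0.157), and held with control replicate 2 left out as well, at −1.70 (adjusted p = 0.0195). Without control replicate 2 alone the value was −3.99 (adjusted p = 7.92e-06). Like Kitl, Angpt1 has a transcript of 39.3% GC.

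Il7 (ENSMUSG00000040329.15, chromosome 3) encodes interleukin-7, the cytokine on which B and T cell precursors depend. Controls had 7, 2 and 7 counts in replicates 1, 2 and 3, and no count was found in any knockdown library. A count of 0 allows up to 3 counts, which is 0.0311 CPM over the 3 knockdown libraries together. The summed control level was 5.90 times this limit. That ratio takes the 16 control counts as exact and covers only the counting error of the knockdown zero, so it is not a lower bound on the fold change. The gene did not reach the filter, and an exact permutation test on the CPM values gave p = 0.1, two-sided, the smallest that 3 against 3 libraries allow. In an edgeR fit without a filter Il7 passed (log2 fold change −5.50, SE 1.51, adjusted p = 0.019), where 28.5% of 22030 genes did. Kitl was at −4.80 in that fit, but the value of Il7 rests on a knockdown count of 0.

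Gas6 (ENSMUSG00000031451.7, chromosome 8), which encodes a vitamin K-dependent ligand of the TAM receptor kinases, was the one member that rose. The controls had 96, 116 and 130 counts and the knockdown libraries had 311, 317 and 302, in replicate order. Every knockdown library, at 9.52 to 9.72 CPM, was above the highest control, at 4.38 CPM, and the knockdown libraries were nearly equal. The mean level moved from 3.92 ± 0.616 to 9.64 ± 0.103 CPM (log2 fold change 1.30, SE 0.166, edgeR, adjusted p = 0.000851), 2.46-fold higher. Its transcript of 56.6% GC lies in GC decile 9, where the median was 0.55 and the interquartile range ran from 0.22 to 0.86. With the GC trend removed Gas6 stayed past the threshold at 0.77 (SE 0.148, edgeR, adjusted p = 0.00883), and without control replicate 2 it was at 1.34 (adjusted p = 7.74e-07).

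Cxcl12 (ENSMUSG00000061353.12, chromosome 6), the chemokine that holds blood stem cells in the marrow through CXCR4, did not pass. The controls had 494, 276 and 519 counts and the knockdown libraries had 336, 436 and 414, in replicate order. In CPM control replicate 2, at 9.92, lay below all 3 knockdown libraries (10.4 to 13.3), while control replicates 1 and 3, at 16.6 and 17.5, lay above them. The log2 fold change was −0.26 (SE 0.237, edgeR, adjusted p = 0.406). Without control replicate 2 it was −0.47 (SE 0.116, edgeR, adjusted p = 0.0018), and with the GC trend also removed −0.50 (adjusted p = 0.000644). In these edgeR fits 1 library thus decided whether Cxcl12 was called lower. Limma-voom with sample weights, on all 6 libraries, also called it lower (−0.49, adjusted p = 0.0019). Its weights can count a library that stands apart for less, so this call is not independent of leaving control replicate 2 out. With all 6 libraries and the GC trend removed the edgeR value of Cxcl12 was −0.32 (adjusted p = 0.276). On the authors' FPKM scale the mean levels were 1.59 in control and 1.6 in the knockdown, and the sign of the difference turned.

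Vcam1 (ENSMUSG00000027962.15, chromosome 3), the adhesion molecule bound by alpha-4 integrins, was the most abundant member in control and had the most even replicates there. The controls had 1789, 1476 and 1710 counts and the knockdown libraries had 710, 671 and 636, in replicate order. The level fell from 56.9 ± 3.55 to 20.9 ± 1.02 CPM (log2 fold change −1.44, SE 0.124, edgeR, adjusted p = 0.000158), 2.72-fold lower, with no overlap. Its transcript of 44.1% GC lies in GC decile 2, where the median was −1.01 and the interquartile range, which holds Vcam1, ran from −1.84 to −0.42. With the GC trend removed Vcam1 was at −0.45 (SE 0.118, edgeR, adjusted p = 0.0282), nearer to 0 and still past the threshold. Without control replicate 2 Vcam1 was at −1.49 (adjusted p = 2.21e-11). Icam1, another adhesion molecule of the same superfamily, was at 1.03 ± 0.164 and 0.901 ± 0.242 CPM and was not called (log2 fold change −0.19, SE 0.305, edgeR, adjusted p = 0.632). Its sign turned with upper-quartile factors and without any scaling factors.

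Lepr (ENSMUSG00000057722.18, chromosome 4), the receptor that marks perivascular niche cells in vivo, was nearly silent in both groups. It had 9, 7 and 13 counts in control and 1, 4 and 1 in the knockdown, in replicate order. Summed over libraries, 29 against 6 counts, the control level was 5.34 times that of the knockdown, with a 95% exact interval of 2.18 to 15.7 that covers counting error only. The gene did not reach the filter, and the exact permutation test on CPM gave p = 0.1, two-sided, again the smallest possible. It passed in the edgeR fit without a filter (adjusted p = 0.0357). Leprot, the leptin receptor overlapping transcript gene, does not overlap the Lepr gene model in GENCODE M21 and was far more abundant, at 11.03 ± 1.57 CPM in the controls and 12.9 ± 1.40 CPM after knockdown. It was not called (log2 fold change 0.22, SE 0.16, edgeR, adjusted p = 0.289), but 7 of 21 alternatives called it higher. Among these were the fit without control replicate 2, at 0.35 (adjusted p = 0.0167), and the trend on GC and length, at 0.62 (adjusted p = 0.0112), while the GC trend alone gave 0.60 (adjusted p = 0.0586).

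**Figure D2:**
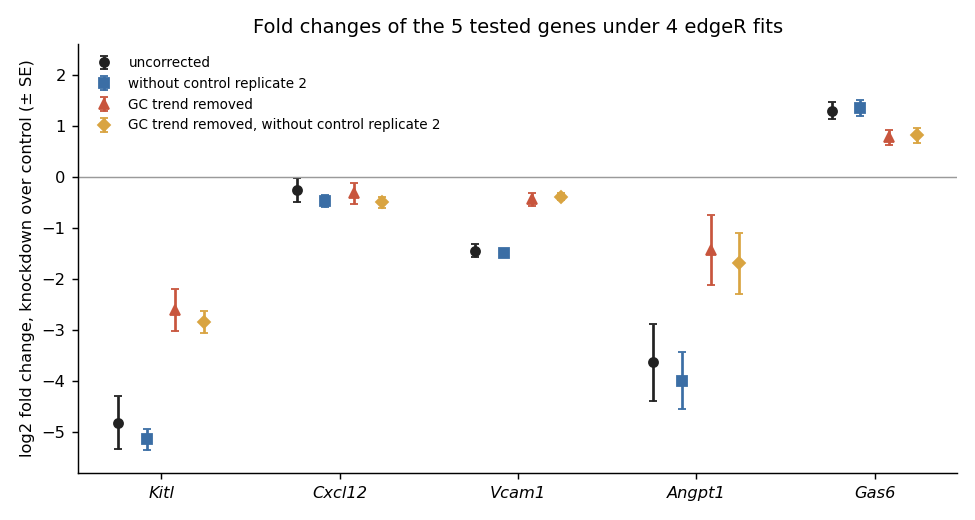
Log2 fold change (knockdown over control) ± SE of the 5 tested niche factor genes in 4 edgeR fits. Kitl runs from −5.14 to −2.61 and Gas6 from 0.77 to 1.34 without reaching 0, while Vcam1 moves from −1.44 to −0.45 when the GC trend is removed.

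Levels of different genes can be set side by side only per length, for which the authors' FPKM (fragment counts scaled by transcript length and library size) were used. In control the order was Vcam1 at 5.66 ± 0.417, Kitl at 2.56 ± 1.14, Cxcl12 at 1.59 ± 0.471, Gas6 at 1.36 ± 0.226, Angpt1 at 0.227 ± 0.155, Lepr at 0.0433 ± 0.0153 and Il7 at 0.03 ± 0.0173 FPKM (SD, n = 3). The libraries of Kitl, Cxcl12 and Gas6 overlapped, as did those of Lepr and Il7, so the order within each of these sets is not fixed beyond the spread. In the knockdown Gas6 came first at 4.04 ± 0.0569, followed by Vcam1 at 2.52 ± 0.11, Cxcl12 at 1.6 ± 0.22, Kitl at 0.107 ± 0.0551 and Angpt1 at 0.0233 ± 0.0153 FPKM. No neighbouring pair among these 5 overlapped. Lepr was listed at 0, 0.02 and 0 and Il7 at 0 in all 3. Kitl thus went from above 67.0% of the 21879 genes in control to above 38.2% in the knockdown, and Gas6 from above 59.6% to above 72.1%. With CPM divided by the length of the reference transcript the control order was the same, but in the knockdown Vcam1 (6.03 CPM per kilobase) stood above Gas6 (3.78).

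Kitl and Angpt1, both with transcripts of 39.3% GC, had the lowest fold changes among the tested members, followed with rising GC content by Vcam1, Cxcl12 and Gas6. Within the first pair Angpt1 had marginally the lower GC content and the smaller fall. These are 5 genes in the same libraries, so the order is a description with no test. Each of Kitl, Angpt1 and Vcam1 lay below the median of its own GC decile, Cxcl12 lay below its median of 0.19, and Gas6 lay above. Measured against the average library, log2 CPM changed with GC by −0.79, −0.45 and −0.64 per 10 points in control replicates 1, 2 and 3 and 0.66, 0.66 and 0.56 in knockdown replicates 1, 2 and 3. What produced these slopes was not tested.

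**Figure D3:**
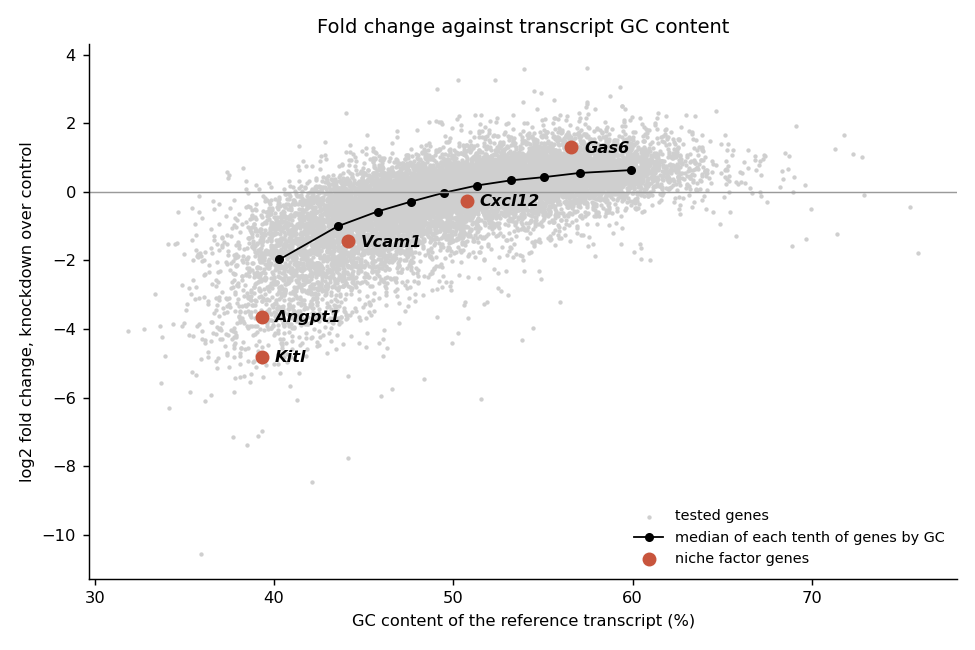
Log2 fold change (vertical axis) against the GC percentage of the reference transcript (horizontal axis) for 13043 tested genes in grey, with the median of each GC decile in black and the 5 tested niche factor genes in red. The black line climbs from −1.97 to 0.64, with Kitl, Angpt1, Vcam1 and Cxcl12 below it and Gas6 above it.

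Receptors of the niche factors that were themselves read in these cells were mixed, with 1 of 7 tested genes higher and 3 lower and a median log2 fold change of 0.27, beside 0.01 for all tested genes (−0.02 for the list without control replicate 2). The 4 calls of 7, and 2 after the GC correction, stand beside 48.0% and 31.6% over all genes. The TAM receptors that bind GAS6 went different ways. Tyro3 rose from 6.15 ± 1.96 to 13.5 ± 0.936 CPM (log2 fold change 1.13, SE 0.243, edgeR, adjusted p = 0.00795), and Mertk, the TAM receptor of phagocytic clearance, fell from 3.06 ± 0.0931 to 1.30 ± 0.362 CPM (−1.24, SE 0.250, edgeR, adjusted p = 0.0061). Axl, by far the most abundant of the 3 in CPM and named here after its values were seen, was at 186 ± 73.0 and 225 ± 10.7 CPM and was not called (0.27, adjusted p = 0.475). Its sign turned without control replicate 2 (−0.02). With the GC trend removed Mertk was still called lower (−0.99, adjusted p = 0.0251) and Tyro3 was not called (0.52, adjusted p = 0.149). The integrin chains Itgb1 and Itgb7, which pair with alpha-4 to bind VCAM-1, fell by 0.61 and 0.94 on the log2 scale. After the GC correction Itgb7 was at −1.52 (adjusted p = 0.0024), and Itgb1 lost its call, at 0.23 (adjusted p = 0.144). With control replicate 2 also left out Itgb1 was called higher, at 0.23 (adjusted p = 0.000369). Itga4 itself had at most 1 count in any library. Cxcr4, the CXCL12 receptor, had 7, 3 and 3 counts in control and none in the knockdown. Kit, Tie1, Il7r and Il2rg were on the list but had no row under these symbols in the count table.

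Among ligands, proteases and relatives of the members, 2 of 12 tested genes rose and 3 fell, with a median of −0.36. With the correction for GC 1 was higher and 1 lower. Over all tested genes 48.0% were called, and 31.6% after the correction, so these counts are not above the background. Pros1, which encodes protein S, the other TAM ligand, fell from 1.97 ± 0.420 to 0.491 ± 0.227 CPM (log2 fold change −2.0, SE 0.390, edgeR, adjusted p = 0.00537) while Gas6 rose. After the GC correction Pros1 was at −0.85 and not called (adjusted p = 0.179). Angpt4, another angiopoietin gene, rose from 7.17 ± 0.713 to 14.2 ± 0.922 CPM (0.99, adjusted p = 0.00138), opposite to Angpt1, and stayed past the threshold at 0.48 (adjusted p = 0.0318) after the GC correction. Adam10, a sheddase of membrane proteins, fell by 1.58 on the log2 scale, and Mmp14, a membrane-anchored matrix protease, was at 0.80, both past the threshold. Corrected for GC, they were at −0.08 and 0.35 and neither passed. A further protease gene, Adam9, named here after its values were seen, fell from 192 ± 99.0 to 51.8 ± 5.77 CPM (−1.89, edgeR, adjusted p = 0.00908). It was still called lower after the GC correction, at −1.34 (adjusted p = 0.0294).

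Of the listed transcription factor and identity genes of CXCL12-abundant reticular cells, the niche cells of the marrow, 20 were tested. The list also holds genes such as Hif1a, Twist1 and Nes, so it is not a panel of markers specific to these cells. Of the 20 tested genes 3 rose and 7 fell, with a median of −0.10. This median was 0.08 with upper-quartile factors and 0.15 when only library totals were used. The 10 calls of 20 stand beside 48.0% over all genes. After the GC correction 4 were higher and 9 lower, with a median of −0.47, beside 31.6% called over all genes. Grem1, a BMP antagonist of skeletal stem cells, fell from 83.6 ± 25.2 to 6.62 ± 1.04 CPM (log2 fold change −3.66, SE 0.274, edgeR, adjusted p = 0.000101), and was at −2.76 with the GC trend removed. The transcription factor genes Nr2f2 and Snai2 were at −1.63 and −1.90 and the adipogenic factor gene Cebpa at 1.52, and these 3 also stayed past the threshold in the same direction after the GC correction. Foxc1, which maintains Cxcl12 and Kitl expression in niche cells, was at 14.3 ± 1.58 and 14.9 ± 1.01 CPM and was not called (0.06, SE 0.141, edgeR, adjusted p = 0.763). With the GC trend removed it was called lower, at −0.43 (adjusted p = 0.0398). Ebf3, a further factor of these cells, was at −0.23 (adjusted p = 0.16), and Ebf1 fell from 3.59 ± 1.38 to 1.68 ± 0.303 CPM (−1.10, adjusted p = 0.031), a call lost in 10 of 18 alternatives, the GC correction among them (−0.57).

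In leptin receptor signalling 5 of 15 tested genes rose and 3 fell, with a median of 0.17. After the GC correction 1 was higher and 3 lower, and the median was −0.20. The 8 calls of 15, and 4 after the correction, are near the shares over all genes, 48.0% and 31.6%. Jak2, the kinase bound to the receptor, fell from 64.4 ± 3.58 to 19.5 ± 2.18 CPM (log2 fold change −1.72, SE 0.140, edgeR, adjusted p = 0.000123) and stayed past the threshold at −0.77 after the correction. Stat5a, a signal transducer, rose from 1.22 ± 0.397 to 4.36 ± 0.213 CPM (1.83, SE 0.252, edgeR, adjusted p = 0.00125) and was at 1.35 after it, again past the threshold. The adaptor gene Sh2b1 and the kinase gene Tyk2 were at 0.82 and 0.80, both called, and at 0.22 and 0.26 after the correction, neither called.

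Among other secreted niche factors 12 of 22 tested genes fell and 1 rose, with a median of −0.96, where 26.8% of all tested genes were called lower. With the GC trend removed 9 of 22 were lower, none was higher and the median was −0.60, where 15.2% of all genes were lower. The chemokine genes Cxcl1, Ccl2 and Cxcl5 stayed past the threshold after the correction at −3.74, −2.23 and −2.95. Fgf7, a growth factor of epithelial cells, fell from 25.3 ± 6.02 to 2.87 ± 0.225 CPM (log2 fold change −3.14, SE 0.218, edgeR, adjusted p = 7.34e-05) and was at −0.64 (adjusted p = 0.00966) after it. Il6, a cytokine of blood and immune cells, fell by 2.77 on the log2 scale (adjusted p = 0.000592), and after the GC correction was at 0.16 (adjusted p = 0.792). Csf1, the macrophage growth factor, was at 387 ± 47.7 and 398 ± 4.28 CPM and was not called (0.04, SE 0.133, edgeR, adjusted p = 0.833). Its sign turned without control replicate 2 (−0.06) and with the GC trend removed (−0.35).

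Of niche adhesion and matrix genes, 10 of 21 fell and 4 rose, with a median of −0.52, beside 26.8% lower and 21.1% higher over all tested genes. After the GC correction 8 were lower, none was higher and the median was −0.15, beside 15.2% lower and 16.3% higher over all genes. Alcam, a cell adhesion molecule of stem cells and stroma, fell from 10.8 ± 0.858 to 1.82 ± 0.199 CPM (log2 fold change −2.57, SE 0.167, edgeR, adjusted p = 5.14e-05), and Vcan, the proteoglycan versican, fell by 3.20 on the log2 scale. Spp1, osteopontin, and Cdh11, the mesenchymal cadherin gene, were at −1.95 and −1.85. Corrected for GC, these 4 were at −1.55, −2.10, −1.0 and −1.0, and all 4 remained past the threshold.

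**Figure D4:**
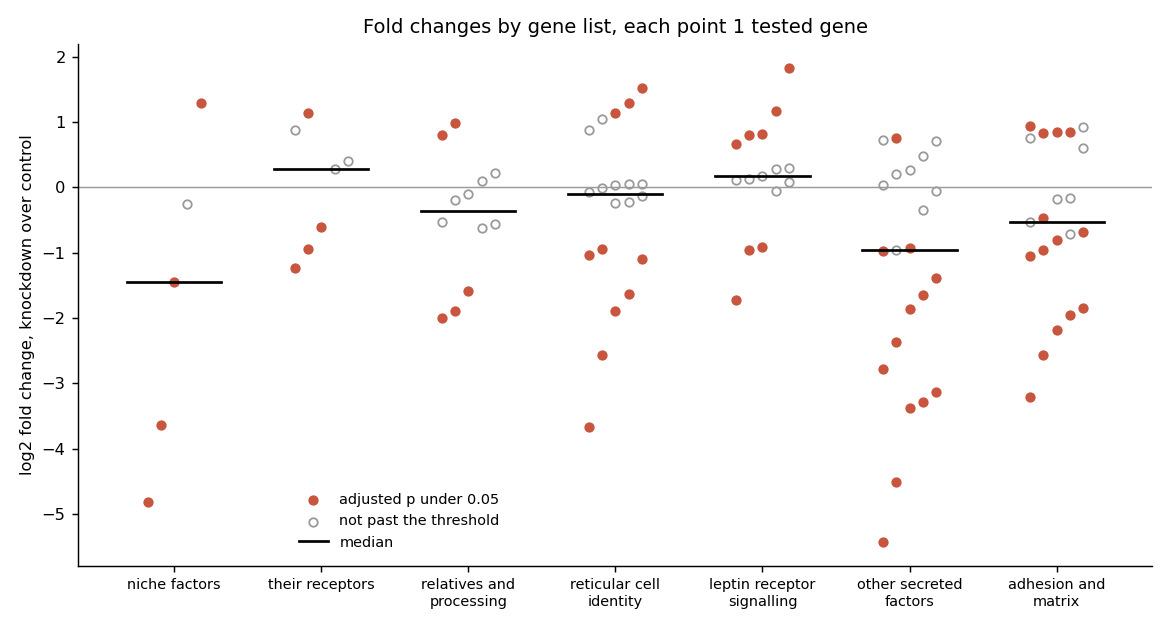
Log2 fold change (knockdown over control) of each tested gene in the niche factor set and 6 related gene lists. Filled points passed an adjusted p under 0.05 (edgeR), open points did not, and bars are medians. The list of other secreted factors reaches furthest down, with 12 of 22 genes called lower.

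The share of lower calls over all genes was 56.0% with TMM, against 43.8% with upper-quartile factors and 39.7% with library totals alone, and these scalings moved the median of all genes up by 0.19 and 0.25. The directions and calls of Kitl, Vcam1, Angpt1 and Gas6 were the same under both. The leptin receptor list then had 6 of 15 higher and 2 lower, or 6 and 1. The list of other secreted factors had 3 of 22 higher and 12 lower under each. Over all 13067 genes 3771 were higher and 2938 lower, or 4280 and 2814.

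The genes with profiles most like each member over the 6 libraries were found by the Euclidean distance between centred log2 CPM profiles, among 8799 genes of at least 5 CPM (8800 for Angpt1). For Kitl these were the zinc finger genes Zfp654 (distance 0.402, log2 fold change −4.86) and Zfp62 (0.814, −4.97). For Vcam1 they were Lpl, lipoprotein lipase (0.111, −1.42), and Tdp2, a DNA repair enzyme gene (0.145, −1.50). For Gas6 they were Tmem104 (0.136, 1.39) and Rbpms, an RNA-binding protein gene (0.140, 1.24). Cxcl12 was nearest to the apoptosome gene Apaf1 (0.116, −0.32) and Arhgap32 (0.143, −0.24), and Angpt1 to Brwd3 (0.999, −3.05) and Map9 (1.0, −2.88). The GC content of the nearest genes was 36.9 and 38.8% for Kitl, 43.5 and 43.0% for Vcam1, 57.7 and 58.1% for Gas6, 46.0 and 46.9% for Cxcl12 and 38.5 and 42.7% for Angpt1.

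Markers of other cell types ranged from nearly absent to abundant, also within a list. Of the adipocyte genes, Lpl was at 93.4 CPM in the controls, while Plin1 had at most 1 count in any library. Adipoq, Cidec, Lep and Cfd had no row under these symbols in the count table. The count table held 10 of 14 listed haematopoietic markers. Of these 9 were under 1 CPM in every library, among them Ptprc (CD45), with at most 3 counts. The summed level, 25.7 to 42.6 CPM in the controls and 46.4 to 51.1 CPM after knockdown, came almost wholly from the lysosomal gene Cd68. The count table held 7 of 10 listed endothelial markers. Of these 3 were under 1 CPM throughout, Cdh5 and Pecam1 included, and 3 were at 1 CPM or more in every library. From control to knockdown the means of these were 4.87 to 7.27 CPM (Kdr), 3.16 to 7.02 CPM (Vwf) and 6.70 to 2.44 CPM (Flt1). Among 5 tested endothelial markers 1 was called higher and 1 lower, beside 48.0% called in either direction over all tested genes. The endothelial sum was 14.5 to 18.8 CPM in the controls and 17.2 to 19.1 CPM after knockdown. The adipocyte list, of which Lpl, Pparg and Fabp4 were above 1 CPM, summed to 110 to 121 CPM in the controls and 51.8 to 53.7 CPM after knockdown. Most of that difference was Lpl (93.4 to 34.8 CPM), which was not called after the GC correction (−0.28, adjusted p = 0.129). Fabp4 also fell, from 6.81 to 1.57 CPM, while Pparg was at 15.9 and 16.5 CPM. After the GC correction Pparg was called higher, at 0.78 (edgeR, adjusted p = 0.0269). Before the correction Lpl and Fabp4 were called lower, 2 of the 3 tested, where 26.8% of all tested genes were. The osteoblast list summed to 40.1 to 47.9 CPM in the controls and 73.9 to 78.6 CPM after knockdown, with Sp7, Bglap, Ibsp and Dmp1 under 1 CPM. Most of that difference was Col1a1, also on the stromal list (17.6 to 46.0 CPM), while Runx2 was at 25.7 and 25.4 CPM. Of 3 tested osteoblast markers 2 were called higher, where 21.1% of all tested genes were. After the GC correction Runx2 was called lower, at −0.56 (edgeR, adjusted p = 0.0469). The part of these shifts in the members' changes was not tested.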

How the data were processed

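Messenger RNA of 6 mBMSC libraries was measured. The authors deposited raw counts per gene for 22030 genes and FPKM for 21879 genes. The submitters' processing notes name HISAT2, MultiQC and the build GRCm39 without versions. For the counting tool, strand setting and annotation release, nothing is given in the sources used here.

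Counts were tested with edgeR 4.0.16 (R 4.3.3): filterByExpr, TMM scaling, and the robust quasi-likelihood test of knockdown against control, two-sided, Benjamini-Hochberg adjusted over 13067 genes, called under 0.05. The SE is the log2 fold change over the square root of F. Transcript GC content and length came from GENCODE M21, from the transcript with the longest coding part, for 13043 genes (99.8%). The GC trend of each library was fitted by loess (span 0.3, degree 1) on log2 CPM (prior count 2) and entered as an offset. Fits were tested on simulated data. Alternatives included DESeq2 1.42.0, limma 3.58.1 (voom and limma-trend on FPKM), other scalings, filters and libraries left out. Total counts limit precision for members under 100 counts.

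The members, gene lists and tests were chosen with earlier results of these data known. Named genes are the members, up to 4 genes of smallest p per list, 10 preset genes, Riok3 and the 2 nearest profiles per tested member. Axl and Adam9 were added later. Marker lists cover stromal, haematopoietic, endothelial, adipocyte and osteoblast genes.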

Additional observations from a re-analysis of the deposited data

How the results depend on the processing

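Of the members, Kitl and Gas6 kept direction and call in all 21 alternatives (Kitl from −5.30 to −1.63, Gas6 from 0.75 to 1.54). Vcam1 kept both in 20 of 21, lost only with the GC offset and replicate block together (−0.44, adjusted p = 0.0886), and Angpt1 in 14 of 18. Members called, of 5 tested, numbered 4 in edgeR, 4 or 5 with 1 library left out, 3 with the GC offset and 2 with the GC offset and replicate block. Low counts limit Angpt1, Il7 and Lepr.

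With the replicate block alone 5615 genes and 4 members were called, and no member's call changed. Same-numbered libraries deviated with correlations of −0.076, 0.044 and 0.052, and control replicate 1 correlated best with knockdown replicate 3, so the numbers are not taken to pair the libraries.

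Settings change the number of genes tested, so counts are given with it. Genes called were 6266 of 13067 in edgeR, 9475 of 13067 with voom, 4118 of 13043 with the GC offset and 3102 of 13043 with that and the block. They were 5164 of 13043 with GC and length and 4951 of 9372 with a filter of 5 CPM. With FPKM at pseudocounts of 1 and 0.1 they were 5942 and 5876 of 9804. With 1 library left out 4340 to 9592 were called, the highest, of 13398, without control replicate 2. With the GC offset but without control replicate 2, 8227 of 13372 were called. Receptors called were 4 of 7, and 2 of 7 with the GC offset, with GC and length and with the GC offset and block. With FPKM at either pseudocount 2 of 4 were called, and with 1 library left out 3 or 4 of 7. Relatives and proteases called, of 12, were 5, 8 with voom, 2 with the GC offset, 3 with GC and length, and 1 with the GC offset and block. Reticular cell genes called, of 20, were 10, and 16 with the GC offset but without control replicate 2. Leptin receptor signalling genes called, of 15, were 8, 4 with the GC offset, with or without the block, and 4 to 10 with 1 library left out. The lowest of these was without knockdown replicate 2, and without control replicate 1, knockdown replicate 1 or knockdown replicate 3 it was 5. Other secreted factors called were 13 of 22, and 8 of the 11 that were tested with a filter of 5 CPM. Adhesion and matrix genes called, of 21, were 14, 8 with the GC offset, 9 with GC and length and 5 with the GC offset and block. With FPKM at either pseudocount 9 of 13 were called.

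The sign turned for these log2 fold changes, and the cause was not tested. With the GC offset, GC and length, the GC offset and block, and the GC offset but no control replicate 2, in that order, Itgb1 was at 0.23, 0.24, 0.23 and 0.23, Foxc1 at −0.43, −0.63, −0.43 and −0.34, Csf1 at −0.35, −0.45, −0.34 and −0.44, Apaf1 at 0.31, 0.47, 0.33 and 0.15, Arhgap32 at 0.23, 0.62, 0.25 and 0.085, and Axl at −0.097, −0.15, −0.012 and −0.39. Il6 was at 0.16, 0.17 and 0.42 under the first, the third and the last of these. With FPKM at pseudocounts of 1 and 0.1 and unfiltered, Cxcl12 was at 0.023, 0.049 and 0.023, Ebf3 at 0.030, 0.042 and 0.030 and Arhgap32 at 0.025, 0.059 and 0.025. Icam1 was at 0.011 with unfiltered FPKM, 0.011 with upper-quartile factors and 0.056 with library totals. With library totals Ebf3 was at 0.017 and Arhgap32 at 0.00025. With voom Csf1 was at −0.048 and Axl at −0.0032. With 1 library left out Icam1 ran from −0.31 to 0.024 (above 0 without knockdown replicate 1), Csf1 from −0.060 to 0.092 and Axl from −0.019 to 0.45 (both below 0 without control replicate 2).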
